A study of Glycine max with 60 samples.

Results

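The step from the first to the second stage of seed growth was followed in the low phytic acid soybean line 1mlpa, in the 3 libraries labelled 1mlpa Stage2 and the 3 labelled 1mlpa Stage1, which are 6 of the 60 RNA libraries of the series. The line 1mlpa has the genotype mips1/MRP-L/MRP-N. It carries a mutation of MIPS1, and its MRP-L and MRP-N genes are not mutated. Stage 1 (S1) seeds were 2 to 4 mm long and stage 2 (S2) seeds 4 to 6 mm, and both were whole seeds from plants grown in chambers with 14 h of light at 24 °C and 10 h of dark at 16 °C, with 48 plants of the line in 12 pots. The series also holds 3 later stages and 3 other lines, each with 3 libraries a stage. 1MWT (MIPS1/MRP-L/MRP-N) is the isogenic sister of 1mlpa with normal phytic acid, 3mlpa (mips1/mrp-l/mrp-n) carries all 3 mutations, and 3MWT (MIPS1/MRP-L/MRP-N) is its sister without them. The labels mark 3mlpa and 3MWT as data analysed again from an earlier study. S1 and S2 seeds differ in size and age together, and each line is 1 inbred line, so the comparison describes this step in this line.

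Phytic acid is the main store of phosphorus in seeds. Its synthesis starts when MIPS turns glucose-6-phosphate into inositol phosphate, which kinases then phosphorylate step by step, and MRP transporters are thought to carry the product into storage vacuoles. In a young legume seed the embryo first grows by cell division inside the endosperm and seed coat, and then turns to filling, when cotyledon cells expand and make storage globulins, oil and, in soybean, chlorophyll. The factors LEC1, ABI3, FUS3 and LEC2 are known in Arabidopsis to switch on the filling genes.

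The 6 libraries held 22623004 to 28110268 counted reads, with 2.65% to 4.93% of them on the 10 most abundant genes of a library. Replicates were never closer than counting noise allows (chi-square per degree of freedom 4.16 to 43.8 between replicates), so no library was entered more than once. Across genes, log2 levels correlated at 0.991 to 0.995 between S1 libraries, at 0.996 between S2 replicates 2 and 3, but at 0.983 and 0.978 between S2 replicate 1 and the other two, and at 0.948 to 0.966 between S1 and S2. S2 replicate 1 is the library whose column name carries a suffix that the other 5 lack. It was the lowest S2 library for 1056 of the 1932 genes that rose (54.7%) and the highest for 896 of the 1535 that fell (58.4%), so it lay nearer to S1. Nothing in the labels says that replicates came from separate plants, so p-values measure the spread between libraries, which may be technical. That spread is estimated for each gene over the groups of all 60 libraries, not over these 6 alone.

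Between S1 and S2 of 1mlpa, 3467 of 40517 tested genes changed (8.56%), 1932 of them higher at S2 (4.77%) and 1535 lower (3.79%). A gene is called changed at an adjusted p under 0.01 and a log2 fold change (S2 over S1) above 1 in size. The test is edgeR's quasi-likelihood test, in a fit of all 60 libraries. SE is an approximate standard error, the size of the log2 fold change divided by the square root of the test's F statistic. It is rough for genes near absence at a stage. Of the risen genes 242 rose more than 10-fold and of the fallen 126 fell more than 10-fold. The median log2 fold change over all tested genes was -0.01. In 3443 of the 3467 the libraries of S1 and S2 did not overlap. Over all tested genes, every S2 library was above every S1 library in 19.5% and below in 19.5%. The count of falls leaned on single libraries more than the count of rises, and without S2 replicate 3 there were 1635 rises and 885 falls. Without S2 replicate 1 there were 2045 and 1575, and of the lists described below 8 storage globulins, 15 oil body, 25 LEA, 17 maturation regulator and 55 light harvesting genes rose, against 8, 14, 29, 17 and 60 with it.

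**Figure D1:**
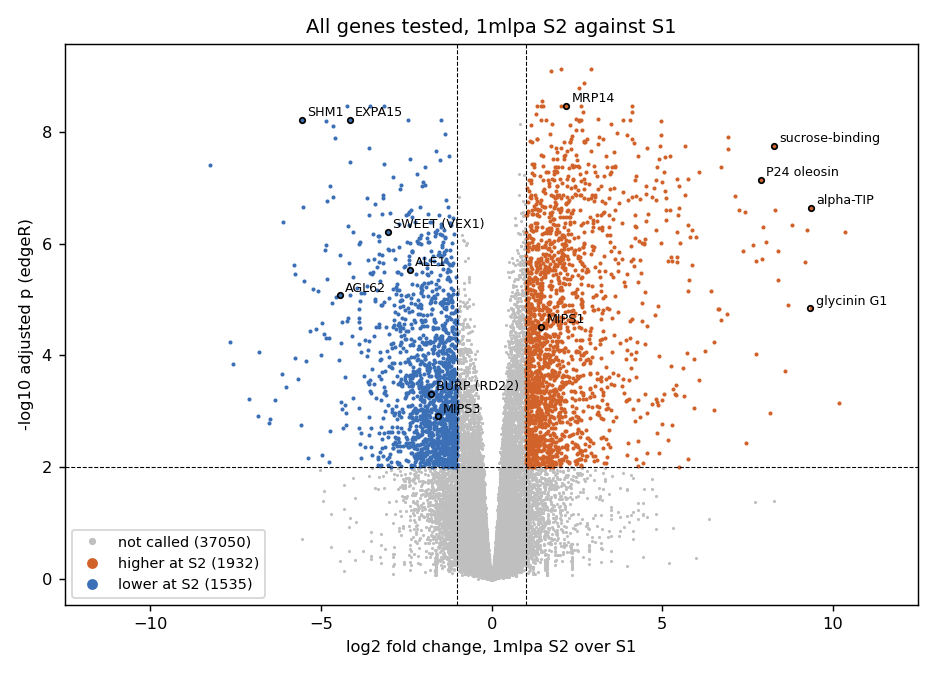
Each point is 1 of the 40517 tested genes, with its log2 fold change of 1mlpa S2 over S1 on the x axis and -log10 of its edgeR adjusted p on the y axis, and dashed lines mark the thresholds. The 1932 genes called higher (orange) reach further from 0 than the 1535 called lower (blue), and the circled genes are named in the text.

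Gene functions come from the closest Arabidopsis and UniRef entries that the authors' tables give for 11999 genes, almost all of them genes that the authors had called somewhere in the series. Lists of genes drawn from them start from a higher share of calls, 14.9% risen and 12.1% fallen over 11823 annotated tested genes with a median log2 fold change of -0.06, and each list below is read beside those shares. Soybean has many near-identical gene copies, among which reads may be divided by chance. Copies without an annotation are on no list, so statements on both or all copies of a gene cover annotated copies only. As those were mostly called by the authors, unchanged copies may be missing. In whole seeds, a fall can mean fewer cells of a kind or less RNA per cell, which cannot be told apart. Levels are TMM-normalized CPM (counts scaled to the library size), given for replicates 1, 2 and 3 in that order.

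**Figure D2:**
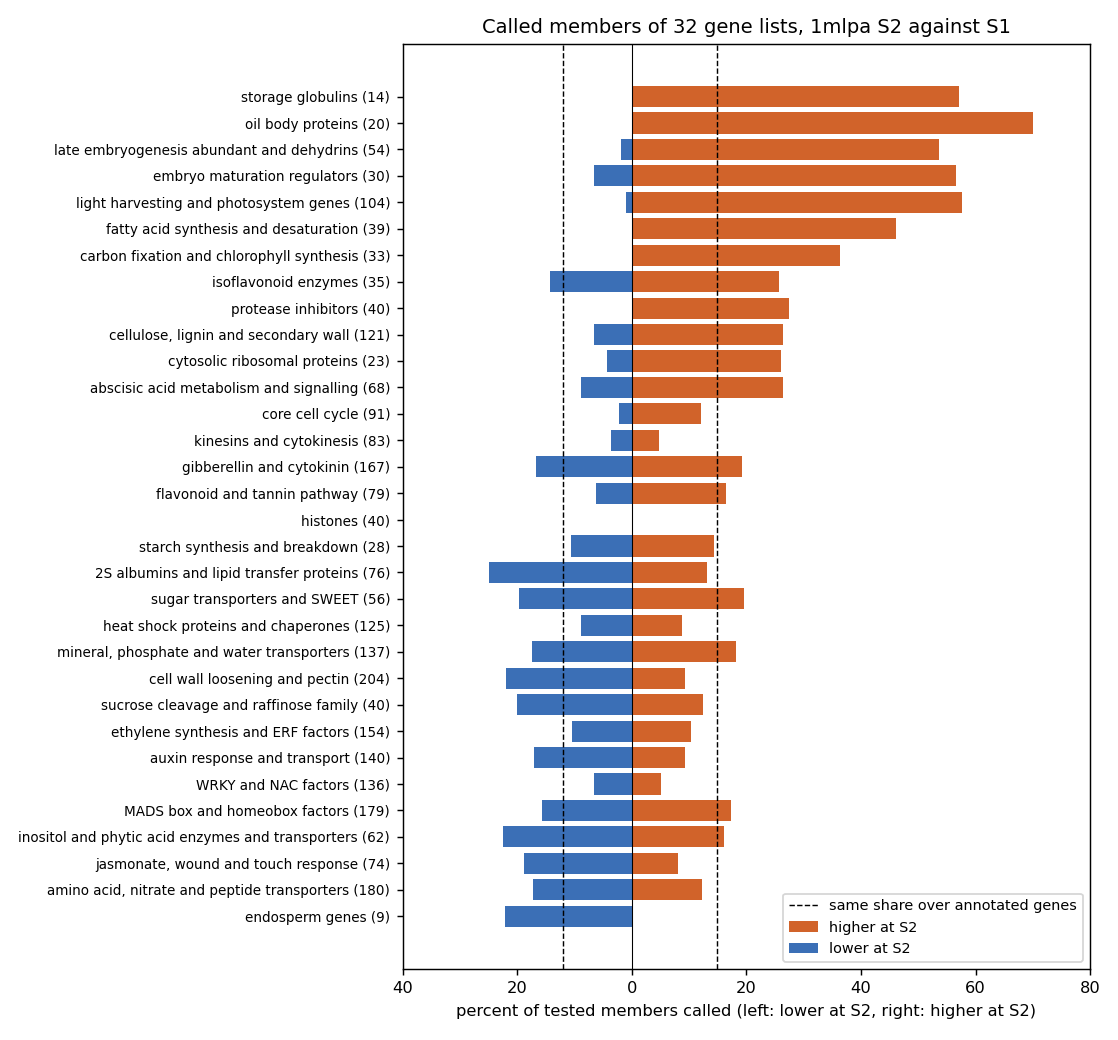
Bars give the percent of tested members of each of 32 gene lists called higher (orange, right) and lower (blue, left) at S2 in 1mlpa, with the number of tested members in brackets, and dashed lines the same shares over annotated genes (14.9% and 12.1%). Storage globulin, oil body, late embryogenesis, light harvesting and maturation lists lie far to the right with few or no falls, and histones have no bar.

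The mutated gene MIPS1 (Glyma.11G238800) was transcribed at both stages and rose. It was at 499, 406 and 883 CPM at S1 and 1457, 1637 and 1804 CPM at S2 (log2 fold change 1.45, SE 0.26, adjusted p = 3.11e-05), and all S2 libraries were above all S1 libraries, of which replicate 3 was the highest. Without S2 replicate 1 its log2 fold change was 1.57 (adjusted p = 3.33e-05), and it was not called with the 6 libraries fitted alone (adjusted p = 0.0106). A transcript level does not show the mutation. Both other MIPS genes on the list, whose best Arabidopsis match is MIPS3, fell, and they are named after their values were seen. Glyma.05G180600 was at 358, 373 and 377 CPM at S1 and 225, 76.6 and 69.8 CPM at S2 (log2 fold change -1.58, SE 0.37, adjusted p = 0.00122), and Glyma.08G138200 was at 0.942, 0.901 and 1.397 CPM at S1 and 0.309, 0.424 and 0.347 CPM at S2 (log2 fold change -1.58, adjusted p = 0.00355). S2 replicate 1 lay between S1 and the other S2 libraries in the first of them. The calls were lost without S2 replicate 2 or 3, or with the 6 libraries fitted alone, for Glyma.05G180600 (log2 fold changes over the alternatives -2.30 to -1.28, adjusted p up to 0.0234), and without S1 replicate 3, S2 replicate 1 or S2 replicate 3 for Glyma.08G138200 (adjusted p up to 0.033). MRP-L (Glyma.19G169000) was at 57.6, 55.8 and 60.6 CPM at S1 and 45.3, 35.8 and 36.8 CPM at S2, lower in every S2 library but by a log2 fold change of -0.56 that is short of the threshold (adjusted p = 0.00866). The levels of MRP-N (Glyma.03G167800) were 43.5, 43.1 and 49.8 CPM at S1 and 33.3, 36.5 and 37.1 CPM at S2 (log2 fold change -0.35, adjusted p = 0.271).

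Later steps and transporters of the pathway also went both ways. The inositol pentakisphosphate 2-kinase gene Glyma.14G072200, of the last step to phytic acid, was at 6.22, 5.63 and 5.70 CPM at S1 and 15.8, 20.5 and 21.8 CPM at S2 (log2 fold change 1.73, SE 0.26, adjusted p = 1.81e-06). A phosphatase gene that removes the 5-phosphate of inositol trisphosphate, Glyma.20G170500, was at 5.15, 5.49 and 6.81 CPM at S1 and 21.2, 19.2 and 21.1 CPM at S2 (log2 fold change 1.82, adjusted p = 1.63e-06), and its relative Glyma.10G221000 also rose (6.32 ± 0.608 CPM at S1 and 16.9 ± 0.925 CPM at S2). Libraries of S1 and S2 did not overlap in these. Among ABC transporters of the MRP class, the genes that match MRP14 parted. Glyma.16G172600 was at 5.05, 4.56 and 7.60 CPM at S1 and 21.6, 25.7 and 31.0 CPM at S2 (log2 fold change 2.18, adjusted p = 3.44e-09), and Glyma.20G165000, named after its values were seen, was at 96.1, 82.9 and 128 CPM at S1 and 57.6, 36.4 and 34.9 CPM at S2 (log2 fold change -1.25, adjusted p = 0.000224). Inositol carrier genes that match INT2 parted as well, with Glyma.09G087200 risen (1.24, 1.15 and 1.46 CPM at S1 and 5.19, 12.1 and 13.1 CPM at S2) and Glyma.05G142400, named after its values were seen, fallen (91.6, 91.2 and 100.4 CPM at S1 and 51.7, 40.4 and 43.1 CPM at S2). The fall of Glyma.05G142400 went below the fold threshold without S1 replicate 3 or S2 replicate 2 (log2 fold changes -1.14 to -0.98 over the alternatives). In the whole list 10 of 62 rose and 14 fell, with a median of -0.35, which is 16.1% and 22.6% against 14.9% and 12.1% over annotated genes.

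Genes of the storage globulins, the proteins that make up most of the protein of a ripe soybean, went from near absence to high levels. The beta-conglycinin alpha prime gene Glyma.10G246300 was at 4.61, 5.46 and 7.74 CPM at S1 and 648, 1487 and 2252 CPM at S2 (log2 fold change 7.94, SE 1.10, adjusted p = 5.12e-07). All S2 libraries stood far above all S1 libraries, and S2 replicate 1 was the lowest of them. Glycinin G1 (Glyma.03G163500), of the other globulin class, was at 0.572, 1.04 and 1.08 CPM at S1 and 132, 541 and 1089 CPM at S2 (log2 fold change 9.34, SE 1.58, adjusted p = 1.44e-05). The beta-conglycinin beta subunit gene Glyma.20G146200 was at 0.235, 0.355 and 0.582 CPM at S1 and 60.7, 126 and 195 CPM at S2 (log2 fold change 8.31, adjusted p = 2.48e-07). Both showed the same order within S2, replicate 1 lowest and replicate 3 highest. Of 14 globulin genes tested, 8 rose and edgeR called 0 lower (0 lower at an unadjusted p under 0.05, 0 called by DESeq2), with a median log2 fold change of 5.32. DESeq2 with a fold change prior called 5 risen. The summed level was 8.44 to 13.4 CPM in the S1 libraries and 909 to 3712 CPM in the S2 libraries.

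The other risen globulins were the beta-conglycinin alpha gene Glyma.20G148400 (0.147 ± 0.0390 CPM at S1 and 32.6 ± 11.6 CPM at S2, SD, n = 3), a second alpha prime gene Glyma.10G246500 (0.247 ± 0.0493 CPM at S1 and 10.0 ± 2.47 CPM at S2), a glycinin gene Glyma.10G037100 (0.156 ± 0.0518 CPM at S1 and 28.5 ± 23.4 CPM at S2) and the vicilin-like genes Glyma.11G065800 (1.14 ± 0.105 CPM at S1 and 21.7 ± 12.2 CPM at S2) and Glyma.01G177000 (0.323 ± 0.0756 CPM at S1 and 17.6 ± 6.86 CPM at S2). The glycinin gene Glyma.10G037100 was the least secure, called under 8 of 13 alternative settings, and its adjusted p reached 0.901. It missed the threshold without any one of the S1 libraries or without S2 replicate 3. The 6 members not called were low in every library. Glycinin G7 (Glyma.19G164800) was at 0.639, 0.656 and 0.902 CPM at S1 and 2.05, 1.42 and 1.24 CPM at S2 and glycinin A3B4 (Glyma.13G123500) at 0.135, 0 and 0 CPM at S1 and 0.168, 1.85 and 3.35 CPM at S2, each higher at S2 without passing the test, whereas glycinin G3 (Glyma.19G164900), at 0.370, 0.410 and 0.728 CPM at S1 and 0.225, 0.273 and 0.694 CPM at S2, overlapped. The alpha prime fragment Glyma.10G246400 and the beta gene Glyma.20G148200 were at no more than 0.300 CPM in a library, and the alpha gene Glyma.20G148300 had no count in any of the 6 libraries.

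Genes whose products lie beside the globulins in protein storage vacuoles were among those with the largest rises. The sucrose-binding protein gene Glyma.10G028300, a relative of the vicilins, was at 2.15, 2.32 and 3.11 CPM at S1 and 329, 789.8 and 1228 CPM at S2 (log2 fold change 8.27, SE 0.94, adjusted p = 1.78e-08). The maturing seed protein gene Glyma.08G116300, a papain-like protease relative of the vacuole, was at 0.639, 0.710 and 0.873 CPM at S1 and 182, 397 and 722 CPM at S2 (log2 fold change 9.18, adjusted p = 2.13e-06). Its paralog Glyma.05G158600 had no count at S1 and 2.13, 4.82 and 9.04 CPM at S2, at least 179-fold higher when 3 counts over the group are taken as the S1 floor. Both alpha-TIP genes, for the water channel of the storage vacuole membrane, rose from near absence. Glyma.16G210000 was at 0.370, 0.683 and 1.31 CPM at S1 and 59.4, 107 and 168 CPM at S2 and Glyma.09G160500 at 0.0673, 0.164 and 0.146 CPM at S1 and 50.0, 77.8 and 131 CPM at S2, and no S1 library came near an S2 library.

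**Figure D3:**
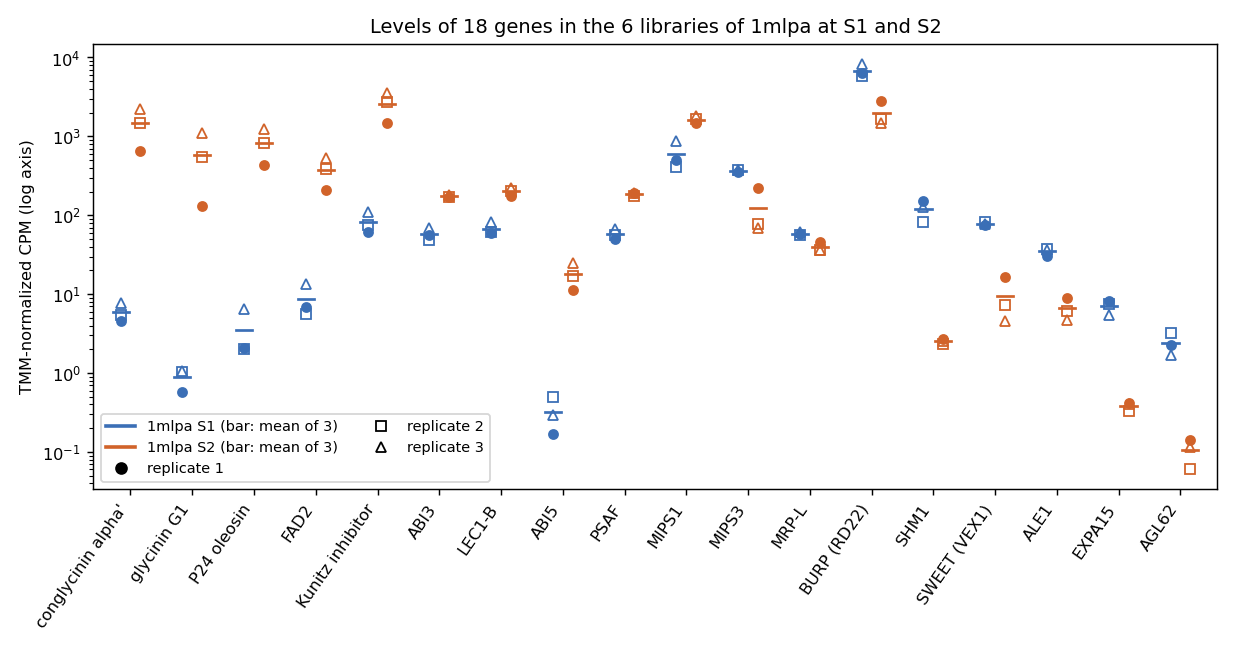
TMM-normalized CPM (log axis) of 18 genes in the 6 libraries of 1mlpa, with S1 in blue, S2 in orange, a marker shape for each replicate and a bar at the mean of 3. Filling genes at the left step up between stages (conglycinin alpha' from 4.61 to 7.74 CPM up to 648 to 2252 CPM), and endosperm, expansin and SHM1 genes at the right step down.

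Protease inhibitors, which soybean seeds store in quantity, rose in a narrow group of genes. The Kunitz trypsin inhibitor gene Glyma.08G341500 was at 60.5, 74.7 and 111 CPM at S1 and 1486, 2766 and 3529 CPM at S2 (log2 fold change 4.98, SE 0.62, adjusted p = 8.06e-08) and its relative Glyma.08G341000 at 12.9, 17.8 and 30.8 CPM at S1 and 655, 1241 and 1684 CPM at S2 (log2 fold change 5.86, adjusted p = 5.67e-07). The Bowman-Birk inhibitor gene Glyma.16G208900 was at 0.404, 0.492 and 0.553 CPM at S1 and 109, 287 and 482 CPM at S2 (log2 fold change 9.22, adjusted p = 5.81e-07). A second Bowman-Birk gene, Glyma.14G117700, and the cystatin gene Glyma.11G253300, an inhibitor of cysteine proteases, held 3 counts and 1 count in the S1 libraries together and were at 10.3, 10.2 and 19.4 CPM and 4.01, 19.9 and 33.6 CPM at S2. Each of these stood higher in every S2 library than in any S1 library. Of 40 protease inhibitor genes 11 rose and edgeR called 0 lower (3 lower at an unadjusted p under 0.05, 0 called by DESeq2), or 1 lower without S1 replicate 2. The median was 0.40, or 0.18 with members that lack a count at 1 stage placed at their bound. Most members did not pass the test, and the summed level was 541 to 664 CPM at S1 and 2967 to 6605 CPM at S2.

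Lipid transfer proteins and their relatives of the albumin fold went in both directions. The lipid transfer protein gene Glyma.03G040400 rose (4.64, 5.71 and 6.17 CPM at S1 and 23.3, 26.3 and 31.4 CPM at S2) and so did the gene Glyma.17G140100 of the same fold (13.8 ± 2.26 CPM at S1 and 61.6 ± 12.6 CPM at S2). Another lipid transfer gene, Glyma.08G304800, was at 13.2, 17.2 and 12.9 CPM at S1 and 1.23, 0.485 and 0.260 CPM at S2 (log2 fold change -4.43, adjusted p = 1.62e-06), a fall in every library. Of 76 such genes 10 rose and 19 fell, with a median of -0.05. That is 13.2% and 25%, against 14.9% and 12.1% over annotated genes.

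Oil synthesis genes rose together with genes of the proteins that coat oil bodies. The P24 oleosin isoform B gene Glyma.16G071800 was at 2.05, 2.02 and 6.49 CPM at S1 and 438, 813 and 1248 CPM at S2 (log2 fold change 7.88, SE 0.98, adjusted p = 7.34e-08). The oleosin gene Glyma.04G077600 was at 3.63, 4.86 and 8.38 CPM at S1 and 376, 678 and 1008 CPM at S2 (log2 fold change 6.93, adjusted p = 2.06e-08). The steroleosin-type gene Glyma.11G015100 (HSD5), for a dehydrogenase of the oil body surface, was at 0.370, 0.300 and 0.407 CPM at S1 and 28.3, 42.9 and 59.9 CPM at S2 (log2 fold change 6.91, adjusted p = 1.26e-08). S1 and S2 were separated by more than an order of magnitude in each. Of 20 oil body genes 14 rose and edgeR called 0 lower (1 lower at an unadjusted p under 0.05, 1 called by DESeq2), with a median of 4.45, and their summed level was 53.6 to 96.2 CPM at S1 and 2231 to 5728 CPM at S2.

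Among enzymes of fatty acid synthesis and desaturation, 18 of 39 rose and edgeR called 0 lower (3 lower at an unadjusted p under 0.05, 0 called by DESeq2), with a median of 1.08. The largest rises were in the endoplasmic reticulum desaturases FAD2, which make linoleic acid. Glyma.20G111000 was at 6.90, 5.57 and 13.5 CPM at S1 and 206, 383 and 532 CPM at S2 (log2 fold change 5.43, SE 0.67, adjusted p = 7.02e-08) and Glyma.10G278000 at 1.04, 0.847 and 1.16 CPM at S1 and 21.5, 37.9 and 54.5 CPM at S2 (log2 fold change 5.22, adjusted p = 2.48e-07). The acyl carrier protein gene Glyma.13G214600, whose product holds the growing chain, was at 113, 105 and 129 CPM at S1 and 213, 328 and 359.8 CPM at S2 (log2 fold change 1.38, adjusted p = 3.26e-07). TAG1 (Glyma.09G065300), a diacylglycerol acyltransferase of the last step to oil, was at 4.34, 4.81 and 5.06 CPM at S1 and 12.0, 15.3 and 18.003 CPM at S2 (log2 fold change 1.67, adjusted p = 8.72e-07). Stages did not overlap in any of these genes.

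Several transcription factor genes that direct seed filling were already transcribed at S1 and rose by S2. Of 9 marker genes of embryo filling regulators 6 rose and edgeR called 0 lower, as did DESeq2 (1 lower at an unadjusted p under 0.05). Their log2 fold changes ran from -1.87 to 1.60, and the levels given next are all of genes that rose. LEC1-B (Glyma.17G005600), a subunit of a CCAAT-box factor, was at 59.9, 60.5 and 82.6 CPM at S1 and 176, 204 and 223 CPM at S2 (log2 fold change 1.57, SE 0.24, adjusted p = 2.68e-06), and LEC1-A (Glyma.07G268100) at 29.0, 30.6 and 35.9 CPM at S1 and 78.9, 86.4 and 93.1 CPM at S2 (log2 fold change 1.44, adjusted p = 8.02e-06). ABI3 (Glyma.08G357600), a B3 domain factor, was at 55.7, 47.9 and 68.4 CPM at S1 and 171, 168 and 183 CPM at S2 (log2 fold change 1.60, adjusted p = 6.18e-07). The 3 libraries of each stage lay close together for all of these. FUS3, another B3 domain factor, rose in both copies, from 8.80 ± 1.09 CPM to 19.0 ± 1.09 CPM for Glyma.19G100900 and from 3.44 ± 0.157 CPM to 8.52 ± 0.266 CPM for Glyma.16G050300 (SD, n = 3). WRI1, which activates fatty acid synthesis genes in Arabidopsis, rose in 3 copies, of which Glyma.08G227700 was at 11.3, 10.1 and 12.7 CPM at S1 and 30.8, 39.7 and 44.4 CPM at S2 (log2 fold change 1.75, adjusted p = 9.94e-07). The bZIP factor ABI5 (Glyma.13G153200), of abscisic acid signalling, had the largest rise of the named regulators, from 0.168, 0.492 and 0.291 CPM to 11.5, 17.03 and 25.2 CPM (log2 fold change 5.76, adjusted p = 6.94e-08).

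Against these rises, the genes whose best Arabidopsis match is LEC2 went from low levels to no count. Glyma.20G035700 was at 0.269, 0.328 and 0.378 CPM at S1 and Glyma.20G035800 at 0.437, 0.546 and 0.146 CPM, and neither had a count in an S2 library, which is at least 11.2-fold and 12.95-fold lower. DESeq2 without a fold change prior did not call the first and gave no adjusted p for the second, and with the 6 libraries fitted alone both lay under the filter on low counts. In all, 17 of 30 maturation regulators rose and 2 fell, with a median of 1.15. AGL15 (Glyma.U018000), a MADS box factor of embryos, was at 7.97, 8.11 and 8.58 CPM at S1 and 19.5, 23.5 and 26.4 CPM at S2 (log2 fold change 1.49, adjusted p = 5.11e-07), also without overlap. The WRI1 and both LEC2 genes given here are named after their values were seen.

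Late embryogenesis abundant (LEA) proteins and dehydrins protect cells in drying seeds, and many of their genes rose at this early step. The seed maturation protein gene PM30 (Glyma.13G363300) was at 15.4, 16.6 and 17.1 CPM at S1 and 167, 235 and 304 CPM at S2 (log2 fold change 3.84, SE 0.49, adjusted p = 1.2e-07). PM34 genes, for dehydrogenase-like seed maturation proteins, rose in both copies, Glyma.20G233000 from 4.78 ± 1.85 CPM to 112 ± 32.8 CPM and Glyma.10G155300 from 3.63 ± 0.918 CPM to 102 ± 40.6 CPM. The LEA D-34 gene Glyma.U018200 was at 13.1, 13.8 and 16.6 CPM at S1 and 63.2, 76.8 and 94.4 CPM at S2. All 4 were several times higher in every S2 library. Of 54 genes 29 rose and 1 fell, with a median of 2.43, or 2.35 with a member that lacks a count at 1 stage placed at its bound. The single fall (Glyma.15G274400, named after its values were seen, 0.821 ± 0.105 CPM at S1 and 0.254 ± 0.0949 CPM at S2) lost its call whichever of the 6 libraries was left out, and its adjusted p reached 0.0568.

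Photosynthesis genes rose broadly but by modest factors. The photosystem I subunit gene PSAF (Glyma.05G022900) was at 49.9, 56.9 and 67.3 CPM at S1 and 193, 173 and 190.5 CPM at S2 (log2 fold change 1.68, SE 0.23, adjusted p = 3.39e-07), and PSBP-1 (Glyma.02G282500), of the oxygen-evolving complex, at 21.8, 24.2 and 32.04 CPM at S1 and 97.2, 91.7 and 99.4 CPM at S2 (log2 fold change 1.88, adjusted p = 1.95e-07). LHB1B1 (Glyma.16G165500), a light harvesting antenna gene, was at 1.38, 1.47 and 3.55 CPM at S1 and 10.2, 13.3 and 17.4 CPM at S2 (log2 fold change 2.66, adjusted p = 4.33e-07). Unlike the storage genes, S2 replicate 1 was not set apart in PSAF and PSBP-1, where its level was within or above the other S2 libraries. Of 104 light harvesting and photosystem genes 60 rose and 1 fell, and the median was 1.13. In 90 of the 104 all S2 libraries were above all S1 libraries, against 19.5% of all tested genes. The sum over the list was 2004 to 2740.0 CPM at S1 and 4673 to 5242 CPM at S2. The 1 fall was ELIP1 (Glyma.10G243800), an early light-induced stress protein, at 1.45, 1.67 and 1.34 CPM at S1 and 0.253, 0.424 and 0.462 CPM at S2, named after its values were seen and called under 8 of 13 alternative settings. It lost its call without S1 replicate 2 or without any one of the S2 libraries, with an adjusted p of up to 0.0235.

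Enzymes of carbon fixation and chlorophyll synthesis followed, with 12 of 33 risen and a median of 0.85, and edgeR called 0 lower (0 lower at an unadjusted p under 0.05, 0 called by DESeq2). PORA (Glyma.06G247100), which makes chlorophyllide in light, was at 11.8, 14.4 and 18.6 CPM at S1 and 59.9, 64.2 and 74.7 CPM at S2 (log2 fold change 2.15, adjusted p = 2.92e-06). The Calvin cycle enzyme gene SBPASE (Glyma.18G030400) went from 25.4 ± 6.60 CPM to 61.6 ± 2.70 CPM (SD, n = 3), and GAPA (Glyma.16G044900), a subunit of the plastid glyceraldehyde-3-phosphate dehydrogenase, from 36.8 ± 8.86 CPM to 86.4 ± 13.6 CPM.

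Histone genes and genes of mitosis were not called between the stages. Of 40 histone genes edgeR called 0 higher and 0 lower (median -0.05, 2 higher and 2 lower at an unadjusted p under 0.05), and DESeq2 called 1 higher and 0 lower. Of 20 genes of B cyclins, B-type kinases and KNOLLE, which act in mitosis and cell plate formation, edgeR called 0 in either direction (median 0.18, 2 higher and 0 lower at an unadjusted p under 0.05), and DESeq2 called 0 higher and 0 lower. Summed histone levels were 2858 to 3071 CPM at S1 and 2389.8 to 3162 CPM at S2, with S2 replicate 1 the lowest. The B cyclins and kinases summed to 596 to 647 CPM and 684 to 739.7 CPM. Some genes of the G1 phase did move. CYCD1;1 (Glyma.02G030200), a D cyclin, was at 4.71, 4.04 and 5.76 CPM at S1 and 24.9, 23.1 and 23.9 CPM at S2 (log2 fold change 2.31, SE 0.32, adjusted p = 4.41e-07), and KRP7 (Glyma.02G133700), an inhibitor of cyclin-dependent kinases, at 2.19, 3.03 and 3.17 CPM at S1 and 9.82, 10.7 and 10.1 CPM at S2 (log2 fold change 1.86, adjusted p = 4.72e-07). In the other direction went both CYCD3;2 genes, named after their values were seen, Glyma.11G052500 from 15.8 ± 1.99 CPM to 6.74 ± 1.39 CPM and Glyma.01G189700 from 7.78 ± 0.638 CPM to 3.65 ± 0.396 CPM. Over the core cell cycle list 11 of 91 rose and 2 fell, with 7 rises without S2 replicate 3 and 4 falls without S2 replicate 1. In the main fit that is 12.1% risen and 2.20% fallen, both below the 14.9% and 12.1% over annotated genes.

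Expansins and other wall-loosening genes fell more often than they rose, and the reverse held for genes of cellulose, lignin and secondary wall. The expansin gene Glyma.19G024200 (EXPA15), for a protein that loosens the primary wall, was at 8.17, 7.43 and 5.38 CPM at S1 and 0.421, 0.333 and 0.405 CPM at S2 (log2 fold change -4.16, SE 0.45, adjusted p = 6.13e-09). EXPA4 (Glyma.07G132600) was at 47.7, 60.1 and 48.8 CPM at S1 and 20.2, 17.9 and 17.7 CPM at S2 (log2 fold change -1.49, adjusted p = 6.13e-09). The S2 libraries were low and alike in both genes. Of 204 genes of wall loosening and pectin 19 rose and 45 fell (median -0.21), and 26 fell without S2 replicate 3. In the main fit that is 9.31% and 22.1%, against 14.9% and 12.1% over annotated genes. The risen included XTH8 (Glyma.10G251700), which cuts and rejoins xyloglucan (4.69 ± 0.612 CPM at S1 and 22.4 ± 5.65 CPM at S2). Of 121 genes of cellulose, lignin and secondary wall 32 rose (26.4%) and 8 fell (6.61%), with a median of 0.35. CSLE1 (Glyma.02G301200), a cellulose synthase-like gene, was at 1.04, 0.956 and 2.42 CPM at S1 and 17.7, 23.2 and 28.0 CPM at S2 (log2 fold change 3.96, adjusted p = 1.16e-08). The cinnamyl alcohol dehydrogenase relative ELI3-1 (Glyma.01G020900) was at 1.82, 1.72 and 3.49 CPM at S1 and 16.8, 20.2 and 24.6 CPM at S2 (log2 fold change 3.13, adjusted p = 5.84e-09).

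Among seed coat markers, 3 abundant tannin pathway genes were not called. Anthocyanidin reductase (BAN, Glyma.08G062000), the entry enzyme to tannins, was at 518, 523 and 534 CPM at S1 and 415, 439 and 386 CPM at S2 (log2 fold change -0.34, adjusted p = 0.62), and TT12 (Glyma.14G032400), which carries tannin precursors into the vacuole, at 195, 171 and 175 CPM at S1 and 162, 132 and 117 CPM at S2 (log2 fold change -0.40, adjusted p = 0.557). In both, every S2 library lay a little below every S1 library, and neither gene was called. The test takes the spread of a gene from all 60 libraries, so these p-values do not measure the spread of the 6 alone. The S1 and S2 libraries overlapped for LDOX (Glyma.11G027700), at 413, 339.7 and 458 CPM at S1 and 306, 408 and 367 CPM at S2. Over 22 seed coat marker genes 3 rose and 1 fell, with a median of -0.12 and summed levels of 1908 to 2252 CPM at S1 and 1694 to 1901 CPM at S2. The risen markers, named after their values were seen, were low copies. An LDOX match (Glyma.06G128200) was at 0.101, 0.109 and 0.146 CPM at S1 and 0.533, 0.485 and 0.347 CPM at S2, and was not called without S1 replicate 1 or 2. A match of the laccase TT10 (Glyma.10G219100) was at 0.135, 0.109 and 0.233 CPM at S1 and 1.18, 0.758 and 1.07 CPM at S2, and was not called without any one of the S1 libraries, S2 replicate 1 or S2 replicate 3. A match of the tannin enzyme DFR (Glyma.13G203800) held 1 count at S1 and was at 0.281, 0.576 and 0.376 CPM at S2. The fallen marker was TT16 (Glyma.09G283800), a MADS box factor of the coat (0.969 ± 0.0863 CPM at S1 and 0.394 ± 0.150 CPM at S2), called under 8 of 13 alternatives and not without S1 replicate 1 or 3 or S2 replicate 2 or 3 (adjusted p up to 0.0372).

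Single genes of other phenylpropanoid branches rose. A dihydroflavonol reductase-like gene (Glyma.11G164700) was at 20.8, 18.7 and 34.4 CPM at S1 and 122.5, 133 and 157 CPM at S2 (log2 fold change 2.48, adjusted p = 9.23e-09). Over the flavonoid and tannin list 13 of 79 rose and 5 fell (median -0.04), with 8 and 1 without S1 replicate 1. Falls numbered 1 without S2 replicate 3 as well, 2 without S2 replicate 2, 3 without S1 replicate 2 or 3 and 8 without S2 replicate 1. In the main fit 16.5% of this list rose, near the 14.9% over annotated genes, and 6.33% fell, below the 12.1%. Isoflavonoids are defence compounds that soybean stores as malonylated glucosides, and the malonyl transferase gene Glyma.18G258000 was at 21.4, 16.9 and 36.3 CPM at S1 and 102, 147 and 177 CPM at S2 (log2 fold change 2.51, adjusted p = 3.21e-08). The isoflavone synthase gene Glyma.07G202300 was at 0.606, 0.355 and 0.786 CPM at S1 and 4.88, 6.64 and 9.02 CPM at S2 (log2 fold change 3.56, adjusted p = 3.64e-07), without overlap. Of 35 isoflavonoid list genes 9 rose (25.7%) and 5 fell (14.3%), with a median of 0.60, and with 3 falls without S1 replicate 1, S2 replicate 1 or S2 replicate 2. The list was drawn by annotation words and also holds relatives such as beta-amyrin 24-hydroxylase (Glyma.08G350800), an enzyme of soyasaponin synthesis (19.1 ± 2.33 CPM at S1 and 123.5 ± 31.7 CPM at S2).

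Endosperm genes were the list with the lowest median, -0.74 over 9 genes, of which 2 fell and edgeR called 0 higher, as did DESeq2 (0 higher and 4 lower at an unadjusted p under 0.05). ALE1 (Glyma.07G263500), a subtilisin protease of the endosperm, was at 30.4, 37.7 and 36.3 CPM at S1 and 9.04, 6.18 and 4.68 CPM at S2 (log2 fold change -2.39, SE 0.37, adjusted p = 2.93e-06). AGL62 (Glyma.20G136600), which in Arabidopsis keeps the endosperm from forming cell walls early, was at 2.29, 3.22 and 1.72 CPM at S1 and 0.140, 0.0606 and 0.116 CPM at S2 (log2 fold change -4.44, adjusted p = 8.39e-06). Each S2 library was below each S1 library in both. Of the other 7, the bHLH factor gene RGE1 (Glyma.02G103200) was at 1.85, 1.94 and 1.89 CPM at S1 and 1.07, 0.636 and 0.636 CPM at S2 (adjusted p = 0.0241), and GSO1 (Glyma.09G048300), a receptor kinase for the embryo surface, at 46.5, 40.2 and 50.7 CPM at S1 and 44.9, 17.8 and 19.4 CPM at S2 (adjusted p = 0.0331), with S2 replicate 1 at the S1 level. MET1 (Glyma.04G187600), a DNA methyltransferase, was at 48.8 ± 5.71 CPM at S1 and 37.0 ± 5.88 CPM at S2 (adjusted p = 0.216). The second GSO1 copy Glyma.17G087700 and the AGL80 copies Glyma.18G042000, Glyma.03G083700 and Glyma.02G188900 had adjusted p from 0.234 to 0.742. The 3 genes used as endosperm markers, ALE1, AGL62 and RGE1, had a median of -2.39, with 2 fallen and 0 risen by edgeR (3 lower at an unadjusted p under 0.05).

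Of the named genes for enzymes that cleave sucrose, some fell and others rose. Among genes of cell wall invertases, which split sucrose outside the cell, those that fell included Glyma.10G074800 (cwINV4) at 4.47, 5.08 and 3.81 CPM at S1 and 0.309, 0.121 and 0.0289 CPM at S2 (log2 fold change -4.81, SE 0.70, adjusted p = 4.24e-06) and Glyma.20G029100 (cwINV4) at 11.8, 7.92 and 13.2 CPM at S1 and 1.09, 0.879 and 0.462 CPM at S2 (log2 fold change -3.75, adjusted p = 7.61e-06). Among genes of sucrose synthases, which split it inside the cell for wall and storage products, those that rose included SUS4 (Glyma.17G045800) at 115, 118 and 131 CPM at S1 and 298, 478 and 564 CPM at S2 (log2 fold change 1.88, adjusted p = 5.02e-08) and SUS2 (Glyma.15G151000) at 2.42, 2.68 and 3.96 CPM at S1 and 14.2, 16.3 and 17.9 CPM at S2 (log2 fold change 2.41, adjusted p = 1.56e-06). There was no overlap between stages in any of the 4 genes. The cwINV2 matches Glyma.19G195400 and Glyma.20G029300, named after their values were seen, also fell. In the whole list of sucrose cleavage and raffinose family genes 5 of 40 rose and 8 fell (median -0.22), or 5 without S2 replicate 3 and 3 rises without S1 replicate 1 or 2.

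Sugar transporters changed in both directions. The SWEET family gene Glyma.19G009900 (VEX1), for a sugar efflux carrier, was at 76.3, 81.7 and 77.3 CPM at S1 and 16.6, 7.21 and 4.62 CPM at S2 (log2 fold change -3.04, SE 0.43, adjusted p = 6.13e-07), a fall in every library, with S2 replicate 1 nearest to S1. The sucrose carrier SUC2 match Glyma.02G075100 was at 10.7, 10.9 and 12.3 CPM at S1 and 39.0, 34.6 and 39.9 CPM at S2 (log2 fold change 1.74, adjusted p = 4.61e-06). A SWEET1 match, Glyma.13G037900, was at 0.471, 0.628 and 0.291 CPM at S1 and 2.27, 3.67 and 4.59 CPM at S2 (log2 fold change 2.90, adjusted p = 1.55e-07). The list of 56 had 11 rises and 11 falls, but 2 of the falls (Glyma.19G143400 and Glyma.03G140800) are PLETHORA factors of root and embryo growth, which came in through the shared symbol PLT and are named after their values were seen. Without S1 replicate 1 there were 7 rises. In the main fit rises and falls were each 19.6% of the list, against 14.9% and 12.1% over annotated genes. Starch genes were few and split, with 4 of 28 risen and 3 fallen (5 by DESeq2). Their shares, 14.3% and 10.7%, were near those over annotated genes. The granule-bound starch synthase gene Glyma.10G172200 was at 68.7, 61.1 and 73.6 CPM at S1 and 151, 177 and 188 CPM at S2 (log2 fold change 1.34, adjusted p = 1.37e-08), while APL3 (Glyma.04G011900), a subunit of ADP-glucose pyrophosphorylase, was at 13.6, 12.7 and 14.2 CPM at S1 and 5.02, 6.39 and 6.24 CPM at S2 (log2 fold change -1.20, adjusted p = 6.63e-05).

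Amino acid, nitrate and peptide transporter genes fell more often than they rose in the main fit, 31 against 22 of 180, with a median of -0.48. Those are 17.2% fallen and 12.2% risen, against 12.1% and 14.9% over annotated genes. Without S2 replicate 3 only 17 fell, fewer than rose, as rises numbered 20 to 24 when a library was left out. A gene of the MtN21/EamA transporter family (Glyma.08G182500) was at 309.8, 278 and 298 CPM at S1 and 43.3, 29.97 and 24.2 CPM at S2 (log2 fold change -3.18, SE 0.41, adjusted p = 1.37e-07). AAP7 (Glyma.18G071700), an amino acid permease gene, was at 19.1, 17.97 and 21.1 CPM at S1 and 5.84, 4.36 and 4.85 CPM at S2 (log2 fold change -1.95, adjusted p = 4.36e-08). Among those that rose, AAT1 (Glyma.09G118900), a cationic amino acid carrier gene, went from 0.0907 ± 0.0321 CPM to 2.46 ± 0.718 CPM (SD, n = 3).

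Several named genes of gibberellin synthesis rose. GA20OX2 (Glyma.07G081700), a gibberellin 20-oxidase, was at 3.53, 3.22 and 9.75 CPM at S1 and 51.5, 68.6 and 79.6 CPM at S2 (log2 fold change 3.59, SE 0.42, adjusted p = 2.3e-08). The 3-oxidase gene GA4 (Glyma.04G071000) was at 0.841, 0.519 and 0.669 CPM at S1 and 5.22, 7.30 and 8.52 CPM at S2 (log2 fold change 3.38, adjusted p = 4.2e-08). The ent-kaurene oxidase (GA3) genes Glyma.15G002200 and Glyma.13G371400 rose from 34.4 ± 7.01 CPM to 142 ± 21.7 CPM and from 42.3 ± 6.46 CPM to 141 ± 25.7 CPM (SD, n = 3), and so did RGL2 (Glyma.18G040000), a DELLA repressor of the response (19.8 ± 1.52 CPM at S1 and 67.3 ± 6.05 CPM at S2). None of the 5 overlapped between stages. Cytokinin oxidase CKX6 (Glyma.09G225400), which breaks cytokinin down, was at 15.5, 11.0 and 9.34 CPM at S1 and 0.674, 1.18 and 0.491 CPM at S2 (log2 fold change -3.93, adjusted p = 6.19e-06). Over gibberellin and cytokinin genes together 32 of 167 rose and 28 fell, with 15 falls without S2 replicate 3 and 18 without S1 replicate 1. In the main fit that is 19.2% and 16.8%, against 14.9% and 12.1% over annotated genes.

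In the auxin list 13 of 140 rose and 24 fell (median -0.25), with 12 falls without S2 replicate 3. In the main fit that is 9.29% and 17.1%, against 14.9% and 12.1% over annotated genes. Rises numbered 10 to 15 when a library was left out. The efflux carrier gene PIN6 (Glyma.13G038400) was at 5.99, 7.37 and 4.48 CPM at S1 and 0.225, 0.273 and 0.202 CPM at S2 (log2 fold change -4.65, SE 0.51, adjusted p = 7.83e-09). Another efflux carrier, the PIN2 match Glyma.17G057300, was at 0.471, 0.601 and 0.728 CPM at S1 and 2.498, 2.42 and 2.80 CPM at S2 (log2 fold change 2.09, adjusted p = 3.29e-07). Abscisic acid genes rose more than they fell, 18 (26.5%) against 6 (8.82%) of 68, with a median of 0.24, with 1 fall without S2 replicate 3 and 3 falls without S1 replicate 1, S1 replicate 2 or S2 replicate 2. Beside ABI5 the risen members included Glyma.03G132700, annotated with the symbol BG1, at 0.101, 0.0546 and 0.437 CPM at S1 and 5.61, 6.79 and 10.6 CPM at S2 (log2 fold change 5.24, adjusted p = 2.74e-08). Whether this match acts on abscisic acid was not checked. AFP2 (Glyma.18G267200), which binds ABI5, was at 12.9, 13.1 and 14.3 CPM at S1 and 45.9, 32.1 and 36.3 CPM at S2 (log2 fold change 1.504, adjusted p = 2.23e-06). NCED5 (Glyma.05G140900), of abscisic acid synthesis and named after its values were seen, was at 0.202, 0.300 and 0.466 CPM at S1 and 1.403, 1.27 and 1.73 CPM at S2 (log2 fold change 2.16, adjusted p = 0.00033). Each was higher in all S2 libraries.

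Lipoxygenase genes, for enzymes that oxidise fatty acids and that ripe soybeans store, split by copy. Among matches of LOX1, Glyma.13G347500 was at 0.303, 0.437 and 0.844 CPM at S1 and 101, 158 and 281 CPM at S2 (log2 fold change 8.39, SE 1.23, adjusted p = 1.35e-06) and Glyma.15G026300 at 1.35, 1.28 and 1.54 CPM at S1 and 88.7, 102 and 172 CPM at S2 (log2 fold change 6.44, adjusted p = 7.19e-06), both from near absence. The reverse held for Glyma.07G007000, at 482, 469.9 and 545 CPM at S1 and 176, 108 and 97.4 CPM at S2 (log2 fold change -1.97, adjusted p = 5.1e-06), and for Glyma.13G347700, at 48.6, 40.8 and 39.9 CPM at S1 and 9.51, 3.36 and 3.29 CPM at S2 (log2 fold change -2.99, adjusted p = 1.33e-06). Glyma.13G347500 and Glyma.13G347700 follow each other closely in the numbering of loci, and moved in opposite directions. Over jasmonate, wound and touch genes 6 of 74 rose (8.11%) and 14 fell (18.9%), with a median of -0.42, against 14.9% and 12.1% over annotated genes. Falls numbered 6 without S2 replicate 2, 7 without S2 replicate 3 and 9 without S1 replicate 3. Such splits were a minority among called genes. Of 609 Arabidopsis genes that are the best match of 2 or more called soybean genes, 453 had all of them called in 1 direction. Copies that were not called are left out of this count. With 1932 called genes risen and 1535 fallen, unrelated genes would also often share a direction, and that share was not computed.

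Large falls were also found in genes outside the lists. SHM1 (Glyma.09G202000), a serine hydroxymethyltransferase of one-carbon metabolism, was at 150.2, 82.7 and 127 CPM at S1 and 2.72, 2.33 and 2.54 CPM at S2 (log2 fold change -5.56, SE 0.59, adjusted p = 6.13e-09). MUM2 (Glyma.04G208400), a beta-galactosidase that in Arabidopsis shapes seed coat mucilage, was at 25.1, 23.9 and 21.9 CPM at S1 and 1.23, 1.30 and 1.24 CPM at S2 (log2 fold change -4.22, adjusted p = 3.44e-09). A copper amine oxidase gene (Glyma.01G062400) was at 74.9, 48.1 and 96.1 CPM at S1 and 4.74, 5.55 and 4.62 CPM at S2 (log2 fold change -3.88, adjusted p = 1.03e-06). Each was well expressed in all S1 libraries and reached at most 5.55 CPM in an S2 library. Transcription factor genes that fell by large factors included the RADIALIS-type gene Glyma.06G309200 (9.53 ± 2.48 CPM at S1 and 0.574 ± 0.108 CPM at S2) and 2 bHLH93-type genes, Glyma.14G201300 (13.01 ± 2.90 CPM at S1 and 1.10 ± 0.240 CPM at S2) and Glyma.02G233300 (36.1 ± 6.92 CPM at S1 and 2.97 ± 0.741 CPM at S2).

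On the RPKM scale, which divides reads by gene length and library size and so allows levels of different genes to be compared, the gene with the highest mean differed between stages. At S1 it was a seed coat BURP domain protein gene (Glyma.07G176700, RD22 match), at a mean of 5943 RPKM, which was at 1706 RPKM at S2. In CPM it was at 6334, 5882 and 8212 CPM at S1 and 2801, 1675 and 1482 CPM at S2 (log2 fold change -1.78, SE 0.39, adjusted p = 0.000482), lower in every S2 library. At S2 it was Glyma.06G160300, for a seed-specific sulfur-rich protein of low molecular weight (LCR74 match), at a mean of 2467 ± 657 RPKM (SD, n = 3) against 293 RPKM at S1. In CPM it was at 112, 136 and 149.5 CPM at S1 and 799, 1178 and 1459.7 CPM at S2 (log2 fold change 3.11, adjusted p = 1.07e-07), higher in every S2 library. A subtilisin-type protease gene (Glyma.06G022600) stood second at both stages, with means of 3399.6 and 2179 ± 803 RPKM, so that the order of the first and second at S2 is within their spread, and its stages overlapped (4873, 4094 and 10449.5 CPM at S1 and 5845, 3353 and 3343 CPM at S2). Also among the top genes of S1, and fallen at S2, were a serine carboxypeptidase-like gene (Glyma.09G226700, 2962 ± 862 CPM at S1 and 593 ± 135 CPM at S2) and the arabinofuranosidase gene ASD1 (Glyma.19G124600, 2519 ± 549 CPM at S1 and 506 ± 226 CPM at S2), an enzyme of wall remodelling. The last 2 and Glyma.06G160300 are named after their values were seen.

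Over the same step edgeR called 706 genes of 1MWT (1.74%), 1856 of 3mlpa (4.58%) and 3740 of 3MWT (9.23%). The 4 steps share no library. Of the genes that rose in 1mlpa, 517 (26.8%) also rose in 1MWT, which is 93.0% of the rises of 1MWT (1.37% of genes tested rose there). In 3mlpa, where 3.30% rose, 1065 did (55.1% of the rises of 1mlpa, 79.5% of those of 3mlpa), and in 3MWT, where 4.67% rose, 1362 did (70.5% and 71.9%). Falls were shared less with 1MWT, where 0.370% of genes tested fell and 96 of the 1535 were among them (6.25%, and 64.0% of the falls of 1MWT). In 3mlpa, where 1.28% fell, 330 did (21.5% and 63.8%), and in 3MWT, where 4.56% fell, 1032 did (67.2% and 55.9%). No gene called in 1mlpa had the opposite call in another line. In all 4 lines 412 genes rose and 65 fell. The genes that rose in 1mlpa, with a median log2 fold change of 1.73 there, had medians of 0.98, 1.31 and 1.52 in the lines 1MWT, 3mlpa and 3MWT, and those that fell, at -1.70, had -0.79, -0.90 and -1.55. As they were chosen on 1mlpa, a larger median there follows from the choice.

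A call in 1 line and none in another does not show that the step differs between them, and the difference itself was called for 0 genes (0%) by edgeR against each of 1MWT, 3mlpa and 3MWT. At an unadjusted p under 0.05 there were 4122, 3239 and 2284 of the 40517 tested genes, the most against 1MWT and the fewest against 3MWT. With no difference at all, a share of 0.05 of the genes would pass on average. DESeq2 called 13, 31 and 13. The smallest adjusted p values were 0.0514, 0.0128 and 0.0863. Against 1MWT the count moved with single libraries. Without 1MWT S2 replicate 3 edgeR called 116 genes, and without 1MWT S1 replicate 1 it called 12. The peroxidase gene RCI3 (Glyma.03G208100) fell in 1mlpa (35.5, 43.0 and 25.4 CPM at S1 and 1.68, 1.67 and 0.809 CPM at S2, log2 fold change -4.64). In 1MWT it was at 15.5, 21.3 and 26.4 CPM at S1 and 16.0, 13.05 and 0.222 CPM at S2, where replicates 1 and 2 stayed near S1 and replicate 3 dropped below every 1mlpa library. The difference of the log2 fold changes was -3.54 (adjusted p = 0.114), and -4.10 without that library (adjusted p = 5.75e-05). For the early nodulin-like gene ENODL20 (Glyma.13G059700) 1MWT S2 replicate 3 was also the lowest of its line, at 5.96, 7.70 and 7.37 CPM in 1MWT S1 and 5.49, 2.69 and 0.259 CPM in 1MWT S2, against 0.561, 0.576 and 0.231 CPM in 1mlpa S2. The sulfotransferase gene ST2A (Glyma.13G198300) was at 2.12, 6.35 and 0 CPM in 1MWT S2 and 0.140, 0.182 and 0.0289 CPM in 1mlpa S2. That 1MWT library also carries a suffix in its column name, and what the suffix stands for is not stated in the labels.

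Other genes with a small p for the difference from 1MWT did not rest on that library in the same way. AFP2 (Glyma.02G118500) was at 4.44, 4.10 and 4.25 CPM at S1 and 9.43, 8.48 and 9.97 CPM at S2 in 1mlpa and at 7.65, 10.5 and 13.1 CPM and 9.29, 7.40 and 8.596 CPM in 1MWT (difference 1.43, adjusted p = 0.0514). The photolyase gene PHR1 (Glyma.11G029500), for a DNA repair enzyme driven by light, was at 4.34, 3.99 and 3.81 CPM at S1 and 1.46, 1.33 and 1.13 CPM at S2 in 1mlpa and at 3.32, 1.55 and 1.34 CPM and 4.06, 1.67 and 2.26 CPM in 1MWT (difference -1.99, adjusted p = 0.0767). The 1MWT stages overlapped in both genes. An oxygenase gene annotated as senescence-associated nodulin 1A (Glyma.07G209100) fell in 1mlpa (2.69, 2.51 and 1.89 CPM at S1 and 0.0842, 0 and 0.0289 CPM at S2) and was not called in the other lines (log2 fold changes -0.50 in 1MWT, -1.53 in 3MWT and 0.15 in 3mlpa). Its difference from 3mlpa was -5.92 (adjusted p = 0.0225), over the threshold of 0.01 used here.

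By gene group, the order of the lines varied. The median log2 fold change of the storage globulins was 5.32 in 1mlpa and 2.37, 2.23 and 4.20 in 1MWT, 3mlpa and 3MWT, where 3, 5 and 9 members rose against 8 in 1mlpa. LEA and dehydrin genes had medians of 2.43, 0.58, 1.39 and 2.30. Light harvesting genes, at 1.13, 0.79, 1.14 and 1.36, were closer to each other. Conglycinin alpha prime (Glyma.10G246300), with 7.94 in 1mlpa, had 4.09 in 1MWT, 5.12 in 3MWT and 4.66 in 3mlpa, and MIPS1 (Glyma.11G238800), with 1.45, had 1.14 in 1MWT, 1.74 in 3MWT and 1.64 in 3mlpa. EdgeR called the difference between lines for 0 genes, and group medians were not tested.

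**Figure D4:**
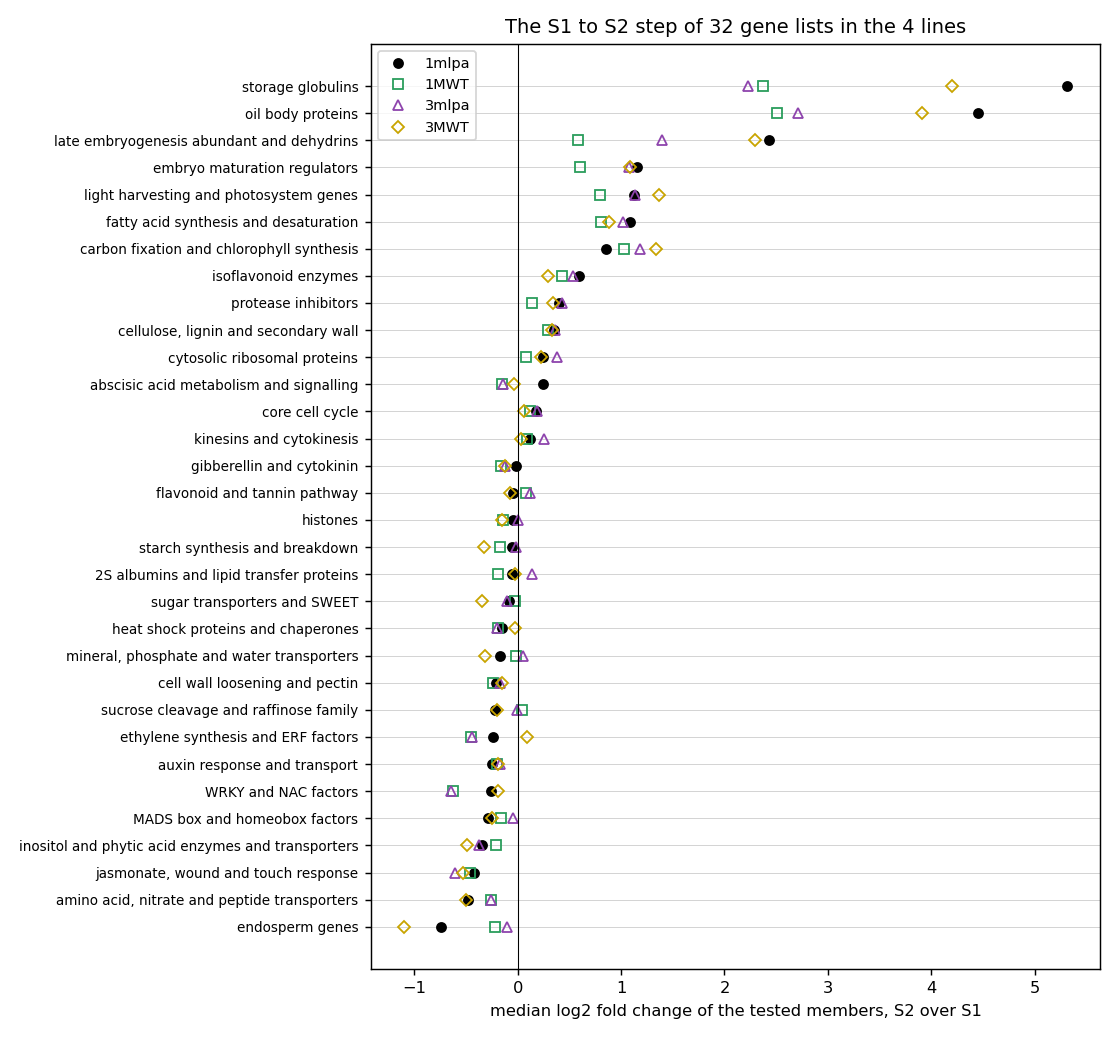
Median log2 fold change of S2 over S1 of the tested members of each of 32 gene lists, in 1mlpa (black circles), 1MWT (green squares), 3mlpa (purple triangles) and 3MWT (yellow diamonds). Oil body and storage globulin lists are furthest right in every line and furthest in 1mlpa, and most hormone and stress lists lie near 0 in all 4 lines.

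Among the 1932 risen genes, the highest mean of the 5 stages of 1mlpa was at S2 for 182 (9.42%), at S3 for 222, at S4 for 859 (44.5%) and at S5 for 669 (34.6%). Over all tested genes it was at S2 for 12.6%, at S4 for 17.7% and at S5 for 27.8%. Among the 1535 fallen genes the lowest mean was at S2 for 150, at S4 for 532 (34.7%) and at S5 for 740 (48.2%), against 11.7%, 17.8% and 31.4% over all tested genes. By their selection risen genes cannot have their highest mean, nor fallen genes their lowest, at S1, where 34.9% of all tested genes have their highest and 31.4% their lowest. Conglycinin alpha prime (Glyma.10G246300) went on to 9677 ± 8346 CPM at S3 and 40104 ± 1269 CPM at S4 (SD, n = 3), with a wide spread at S3. MIPS1 (Glyma.11G238800) reached 3089 ± 119.6 CPM at S4 and was at 2166 ± 258 CPM at S5, and MRP-L (Glyma.19G169000) went from 39.3 ± 5.19 CPM at S2 to 165 ± 28.2 CPM at S5. PSAF (Glyma.05G022900) was at 282 ± 86.7 CPM at S3, and SHM1 (Glyma.09G202000) stayed low, at 1.45 ± 0.692 CPM at S5.

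**Figure D5:**
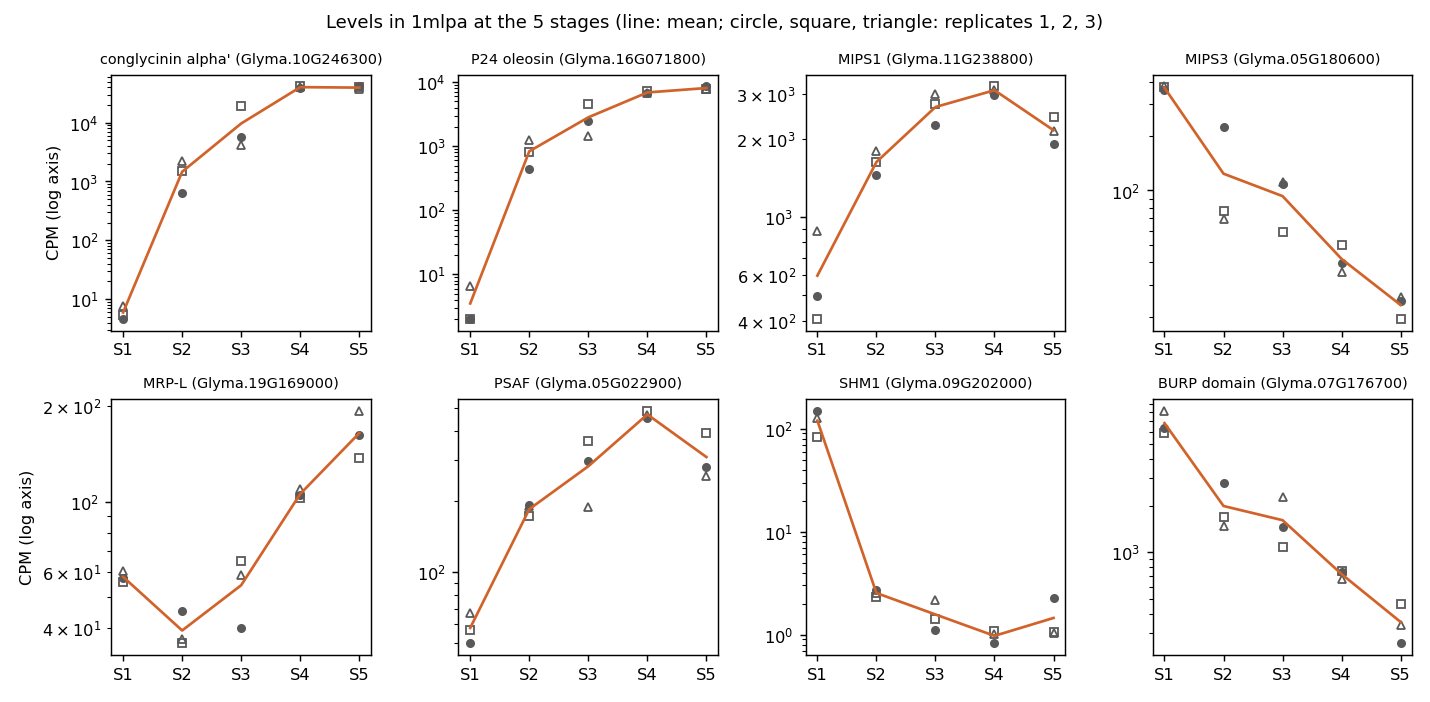
Levels of 8 genes in 1mlpa at the 5 stages in CPM (log axes), with replicates as points and the mean as a line, where MIPS3 marks the gene whose best Arabidopsis match is MIPS3. Conglycinin alpha' climbs from 5.94 CPM at S1 to 40104 CPM at S4, and MIPS1 climbs to S4.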

How the data were processed

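RNA was sequenced from whole seeds of 4 soybean lines at 5 stages, 3 libraries each. Per the labels and the study's methods, the authors aligned reads with STAR (version 2.4.2) to the soybean genome Wm82.a2.v1 and counted reads per gene with featureCounts (version 1.4.6), and deposited the raw count table used here. They also deposited RPKM values (reads scaled to gene length and library size), used here only to compare levels between genes, and these match the counts (implied gene length within 0.00773% for 16788 genes with 100 counts or more in every library). The authors' tables of log2 fold changes and adjusted p values between stages and lines (DESeq2 version 1.8.2 in R 3.2.4) gave only gene annotations, and their values were not used.

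Counts were tested with edgeR (version 4.0.16, R 4.3.3), with TMM normalization, filterByExpr and the quasi-likelihood test, in 1 fit of 60 libraries with 20 group means. P-values were adjusted by Benjamini-Hochberg over 40517 genes of 56044. Differences of the step between lines were contrasts of the same fit. Alternatives were DESeq2 (version 1.42.0), RLE normalization, no filter, the compared libraries alone, a replicate block, leaving out each library and an adjusted p under 0.05. Leaving out the 3 libraries whose column names end in a suffix was chosen after seeing the data. The tests were tried on simulated counts. Tables and figures used Python 3.11.15, pandas 2.3.3, numpy 2.4.6 and matplotlib 3.10.9.

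The comparison, the 32 gene lists and the rule for named genes were chosen with earlier results of these data known. The rule takes MIPS1, MRP-L and MRP-N, the 15 largest rises and the 15 largest falls among annotated calls without overlap of stages whose average log2 CPM is above 1, for each list the 5 members of smallest adjusted p and all members of lists of up to 15, the 10 called genes with the smallest adjusted p of the difference from 1MWT, and the 10 genes with the highest mean CPM at S2. Genes of the markers of seed parts were named as well, and genes outside these rules are marked where they appear. Where a group held 1 to 3 counts of a gene no fold is given, and a fold against a group with no count is a bound from 3 counts over the group. Floors cover counting error only. Totals of 17359192 to 42800413 reads a library allow levels well under 1 CPM to be seen. Gene and promoter sequences were not used here.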

Additional observations from a re-analysis of the deposited data

How the results depend on the processing

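The number of genes called between S1 and S2 of 1mlpa was 3467, and it was 3569 with DESeq2 without a fold change prior, 3519 with one, 3485 with RLE normalization, 3417 without a filter, 3178 with the compared libraries alone, 4376 at an adjusted p under 0.05 and 2520 to 3620 when a library was left out, the lowest without S2 replicate 3. The replicate numbers did not pair the libraries (deviations of S1 and S2 replicates of the same number correlated at -0.13, -0.17 and 0.10 across genes), and the fit with the replicate block called 3421 genes. Without the 3 suffix libraries there were 3767. Of 213 named called genes 190 kept their call under each of the 13 alternatives that gave a p, and 0 changed sign. Of 832 list counts under alternatives 85 moved by over 1.5 times, mostly counts of falls.

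The count of genes whose step differed between lines was the least stable. Against 1MWT it was 0, with 13 by DESeq2, 203 without the suffix libraries and 0 to 116 when a library was left out (12 without 1MWT S1 replicate 1, 116 without 1MWT S2 replicate 3). Against 3mlpa it was 0, with 31 by DESeq2, 11 with the compared libraries alone, 11 without the suffix libraries, 25 at an adjusted p under 0.05 and 0 to 5 when a library was left out (5 without 1mlpa S2 replicate 1, 1 without 3mlpa S1 replicate 3). Against 3MWT it was 0, with 13 by DESeq2 and 0 to 8 when a library was left out (8 without 3MWT S1 replicate 2, 1 without 3MWT S2 replicate 3). The replicate block gave 0 in each. The cause of these shifts was not tested. At this depth 21 of the risen genes had no count at S1 and 11 of the fallen none at S2, so their folds are bounds.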

Other observations

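Kinesin and cytokinesis genes were mostly not called between S1 and S2, with 4 of 83 risen and 3 fallen (median 0.12), and 1 fell without S2 replicate 3. In the main fit that is 4.82% and 3.61%, below the 14.9% and 12.1% over annotated genes. Among the falls was the gene that matches PAKRP1 (Glyma.01G012700), a kinesin of the cell plate region, at 2.52, 0.273 and 2.21 CPM at S1 and 0, 0 and 0.0289 CPM at S2. S1 replicate 2 was low, yet above every S2 library. In 1MWT it was at 8.79, 4.95 and 4.78 CPM at S1 and 2.93, 3.05 and 5.56 CPM at S2, and the difference between the lines had an adjusted p of 0.26 by edgeR.

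MADS box and homeobox factors changed in both directions, 31 up and 28 down of 179 (median -0.29), with 18 falls without S2 replicate 3. Mineral, phosphate and water transporters were as evenly split, with 25 up and 24 down of 137 (median -0.17). These are 17.3% and 15.6% of the first list and 18.2% and 17.5% of the second. Over annotated genes the shares were not far off, 14.9% risen and 12.1% fallen. CAX1 (Glyma.14G193400), a calcium exchanger of the vacuole, was at 0.202, 0.0819 and 0.233 CPM at S1 and 5.81, 8.24 and 8.73 CPM at S2 (log2 fold change 5.45, adjusted p = 3.07e-07), without overlap. NHX3 (Glyma.08G324200), a sodium exchanger, had no count at S1 and 0.758, 1.55 and 1.68 CPM at S2, at least 44.5-fold higher.

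WRKY and NAC factors were mostly not called, with 7 of 136 risen (5.15%) and 9 fallen (6.62%), and a median of -0.26. Falls ranged from 2 (without S2 replicate 3) to 12 and rises from 4 (without any one of the S1 libraries) to 6 when a library was left out. NAC034 (Glyma.17G002800) had no count at S1 and 0.421, 1.39 and 1.88 CPM at S2, at least 41.3-fold higher. Heat shock and chaperone genes had 11 rises and 11 falls of 125 (median -0.16), and 4 falls without S1 replicate 1 or S2 replicate 3, 5 without S2 replicate 1 and 6 without S1 replicate 3. Ethylene and ERF genes had 16 rises and 16 falls of 154 (median -0.24), with falls between 5 (without S2 replicate 3) and 10 when 1 of the 6 libraries was left out. Rises and falls were each 8.8% of the heat shock list and 10.4% of the ethylene list. Both are below the 14.9% and 12.1% over annotated genes. Of 23 ribosomal protein genes, some of them of plastid type, 6 rose and 1 fell (median 0.25), with 3 rises without S1 replicate 1, 2 without S2 replicate 3 and 3 with the 6 libraries fitted alone.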
